A study of Mus musculus with 36 samples.

Results

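Expression of the genes that build synaptic vesicles and release their content was examined in the mouse hippocampus after loss of *Braf* in principal forebrain neurons. The genes were taken by their symbols on the array, namely those beginning with Syt, Stx, Vamp, Cplx, Rims, Rab3 or Sv2 and the single genes *Syn1*, *Syn2*, *Syn3*, *Snap25*, *Syp* and *Unc13a*. This gave 84 of the 17711 genes with a symbol, with 141 probes, and the probe with the highest mean over all arrays stood for each gene. Because the choice went by spelling, it also took in 11 Rab GTPases, *Rab30* to *Rab39b*, and 8 syntaxins of endosomes, the Golgi and the endoplasmic reticulum, which serve other membrane traffic.

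Complete hippocampi of male mice were hybridized to Illumina MouseWG-6 BeadChips in 2 experiments. Braf-cko mice (5 animals, 6 arrays) were homozygous for a *Braf* allele with a loxP flanked exon and carried one CamkIIa-Cre transgene, which is active in principal neurons of the forebrain from the juvenile stage on. Their Braf-flox littermates (6 animals, 6 arrays) had the same floxed alleles without Cre. Both were 4 months old, on a mixed background of 93.7% C57BL/6J, 6.2% FVB and 0.1% 129/Sv. The second experiment set CamkII-Cre mice (6 animals, 12 arrays), with the transgene and no floxed allele, against CamkII-wt littermates (6 animals, 12 arrays), all 6 months old on C57BL/6J. It tests the transgene alone. Interneurons and glia do not use the CamkIIa promoter and kept their *Braf* alleles, and in RNA of whole tissue fewer cells of a type and less RNA per cell cannot be told apart. The *Braf* probe was among the dim probes that were not tested (5.37 to 5.66 in Braf-cko and 5.45 to 5.76 in Braf-flox, log2 intensity), and its place relative to the deleted exon is not given in the sources used here, so it does not check the deletion.

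At a nerve terminal, vesicles are filled with transmitter, tethered by synapsins, docked at the active zone by RIM and RAB3 proteins and primed by MUNC13. Fusion is driven by SNARE proteins, with synaptobrevin (VAMP) on the vesicle and syntaxin and SNAP25 on the plasma membrane, while synaptotagmins sense calcium and complexins hold the assembled complex. BRAF feeds the ERK/MAPK cascade, whose kinases phosphorylate synapsin I and act on transcription through CREB and through induced factors such as EGR1.

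The promoters of both synapsin genes with a match to a binding motif of these factors are shown because the synapsins include the probe that passed the test. They are RefSeq windows of assembly GRCm38.p6, cut before the transcription start. Capitals mark the cAMP response element TGACGTCA in *Syn1* (chrX:20920988-20921137, minus strand) and the EGR motif GCGGGGGCG in *Syn2* (chr6:115134752-115134901, plus strand), each running 5′ to 3′ along the gene.
Syn1: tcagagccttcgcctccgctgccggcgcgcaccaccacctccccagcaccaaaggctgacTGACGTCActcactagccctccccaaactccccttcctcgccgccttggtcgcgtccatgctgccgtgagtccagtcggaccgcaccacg
Syn2: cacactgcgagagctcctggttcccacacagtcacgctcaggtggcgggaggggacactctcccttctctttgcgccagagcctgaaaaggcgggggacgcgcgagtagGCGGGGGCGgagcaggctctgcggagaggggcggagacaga
The motif lay 159 to 152 bases before the start in *Syn1* and 41 to 33 bases before it in *Syn2*. Windows from 250 bases before to 50 after the start were at hand for 65 of the 84 genes, 85 windows in all. They were searched on both strands. The cAMP response element reads the same on both strands. It occurred in 2 genes (3.08%, *Stxbp3* and *Syn1*), beside 2.03% of all 27025 genes with a window and 2.54% of coding genes. The EGR motif occurred in 8 genes (12.3%), namely *Cplx1*, *Rab39*, *Rab3ip*, *Stxbp5*, *Stxbp5l*, *Syn2*, *Syt16* and *Vamp4*, beside 3.31% of all genes and 4.42% of coding genes. A match describes letters in the window and was not tested against the expression values.

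In Braf-cko hippocampus the release machinery as a whole stood close to its level in Braf-flox littermates. Of the 84 genes, 68 had a brightest probe among the brighter 50% of all probes and were tested, and none passed an adjusted p of 0.05 with limma in either direction. Over all 23316 probes tested, 0.373% were called lower and 0.159% were called higher, 0.532% together. At an unadjusted p under 0.05, 3 of the 68 genes were lower and 5 were higher, 11.8% in all, against 10.8% of all probes (5.41% lower and 5.37% higher). The methods' t-test also called none after Benjamini-Hochberg adjustment and gave 3 lower and 3 higher genes without it. The median log2 change was -0.0148 for the genes and 0.00253 for all probes tested.

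The intervals bound what could have been missed. The change was under 0.1 on the log2 scale for 43 of the 68 genes and over 0.3 for 3, and it ranged from -0.43 (*Rims1*) to 0.28 (*Syn3*). The 95% interval lay within 0.5 log2 units of no change for 64 genes and within 0.25 for 33. The 4 wider intervals were those of *Rims1*, *Rab3b*, *Rab32* and *Sytl1*. Genes varied about as much between mice as other probes did, with a median SD within groups of 0.142 against 0.143, lowest for *Rab33b* (0.05) and highest for *Rab3b* (0.41). The median correlation between pairs of them over the 11 mice, group means removed, was 0.027, given as a description. The mean log2 intensity of the 68 genes lay between 8.89 and 8.95 in Braf-cko and between 8.88 and 8.98 in Braf-flox animals.

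**Figure D1:**
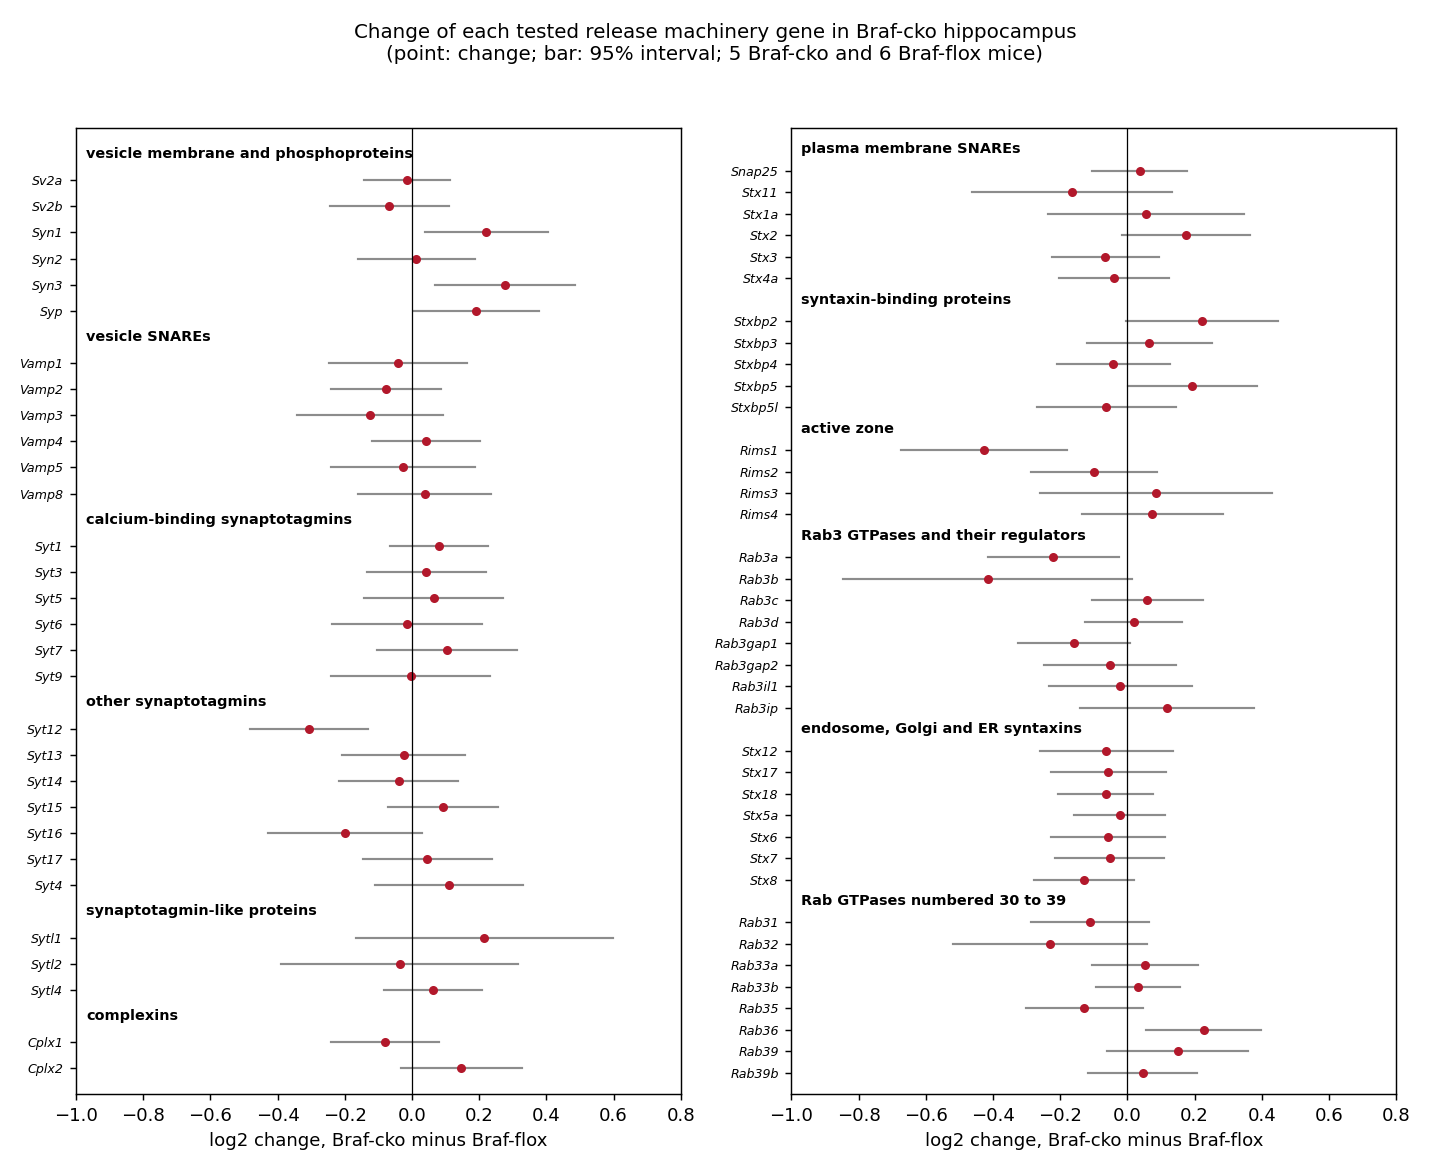
Log2 change (Braf-cko minus Braf-flox, x axis) of each of the 68 tested genes, grouped by role, with the change as a point and its 95% interval as a bar. Most points lie within 0.1 of 0, *Rims1* (-0.43), *Syt12* (-0.31) and *Rab3a* (-0.22) have intervals below 0, and *Syn3* (0.28), *Rab36* (0.23), *Syn1* (0.22), *Stxbp5* (0.19) and *Syp* (0.19) have intervals above 0.

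Among the proteins of the vesicle membrane and the synapsins, 3 of 6 genes (*Syn1*, *Syn3* and *Syp*) had an unadjusted p under 0.05 with higher values in Braf-cko, and none passed the adjusted test. Over all 68 genes this held for 5 (7.35%), beside 5.37% of all probes. *Syn1* encodes synapsin I, which ties vesicles to actin. Its log2 intensity was 13.03, 12.97, 12.97, 13.04 and 12.95 in the 5 Braf-cko mice, against a lowest of 12.62, a median of 12.70 and a highest of 13.11 in the Braf-flox mice. All Braf-cko mice lay above all Braf-flox mice but 1, so that the groups overlapped. The difference was 0.22 (SE 0.08), or 117% of the Braf-flox level with a 95% interval of 103% to 132%, with limma's adjusted p at 0.35. A second *Syn1* probe had a change of -0.08 (SE 0.08).

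*Syn3*, the synapsin expressed early in the development of neurons, had 7.09, 7.08, 7.13, 7.55 and 7.32 in Braf-cko mice, against 6.73, 7.0 and 7.09 (lowest, median, highest) in Braf-flox mice. The Braf-cko mean was raised most by replicates 4 and 5, and the others lay at the top of the Braf-flox range. The change of 0.28 (SE 0.10) had an adjusted p of 0.29 (limma), and the other 3 tested *Syn3* probes gave 0.06, 0.07 and -0.03. *Syp* encodes synaptophysin, the vesicle protein most used as a marker of terminals, and averaged 13.53 ± 0.13 in Braf-cko and 13.34 ± 0.16 in Braf-flox mice (SD, n = 5 and 6). Its change of 0.19 (SE 0.09) had an adjusted p of 0.449 (limma). The transporter-like vesicle glycoproteins *Sv2a* (-0.02) and *Sv2b* (-0.07) were close to 0, and the interval of *Sv2a* was among the narrow ones, from 90.6% to 108% of the Braf-flox level.

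*Syn2* gave unlike results at its probes. At the brightest probe Braf-cko mice averaged 12.67 ± 0.14 and Braf-flox mice 12.66 ± 0.12, a change of 0.01 (SE 0.08, limma's adjusted p 0.981). At a second probe, ILMN_1216744, the values were 7.84, 7.72, 7.93, 7.62 and 7.64 in Braf-cko mice, against 7.19, 7.41 and 7.45 (lowest, median, highest) in Braf-flox mice. Every Braf-cko mouse lay above every Braf-flox mouse. This probe rose by 0.37 (SE 0.08), to 130% of the Braf-flox level, with limma's adjusted p at 0.0448 and an exact permutation p of 0.0022, the smallest that 5 against 6 mice can give. It was the 1 probe called among 99 tested probes of the 84 genes, where 0.159% of all probes were called higher and 0.373% lower. Groups without overlap in the higher direction were found for 0.691% of all probes. The called probe was singled out after its values were seen, and leaving out any 1 of the 11 mice gave an adjusted p of 0.058 to 0.14. The last *Syn2* probe was too dim to be tested (5.71 ± 0.14 in Braf-cko and 5.67 ± 0.25 in Braf-flox). The platform annotation ties the called probe to another transcript record than the other *Syn2* probes, and no sequence or position of the probe was used here. The study, from the same arrays, already lists that *Syn2* record among its higher transcripts.

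**Figure D2:**
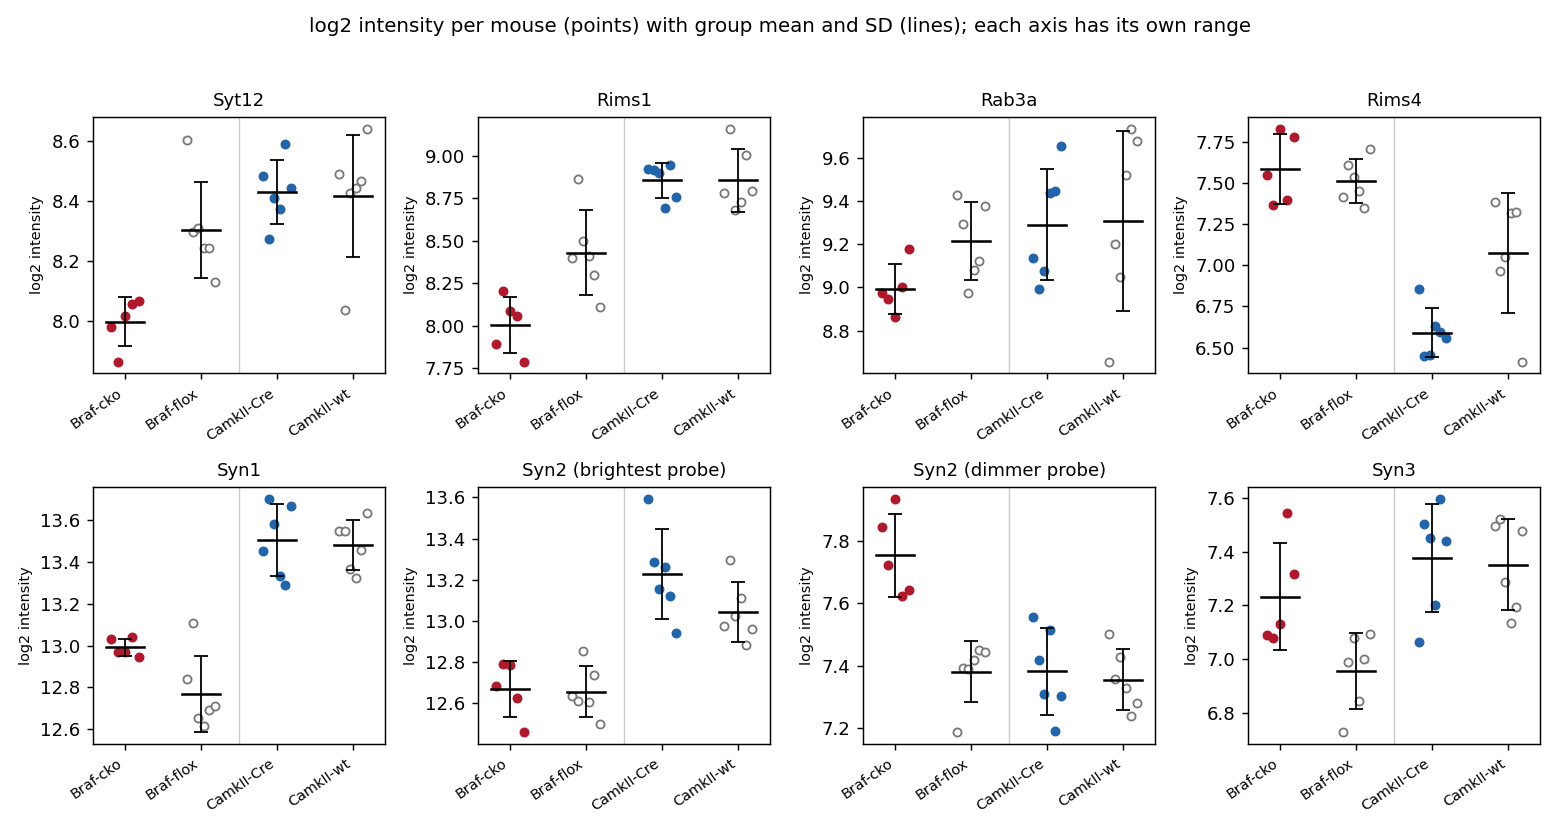
Log2 intensity of 8 probes (y axis, a range of its own for each) in every mouse of the 4 groups (x axis), with points for mice and lines for the group mean and SD. Braf-cko mice lie below all Braf-flox mice for *Syt12* and above all of them at the dimmer *Syn2* probe, the other probes overlap, and *Rims4* is low in 1 of the 6 CamkII-wt mice (6.41).

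No synaptotagmin that binds calcium passed the test. *Syt1*, the fast calcium sensor of release in the forebrain, averaged 13.77 ± 0.08 in Braf-cko and 13.69 ± 0.09 in Braf-flox mice, and its change of 0.08 had an interval of 95.6% to 117% of the Braf-flox level. The 6 tested genes of this group had changes of -0.01 to 0.10, and none had an unadjusted p under 0.05. *Syt2* and *Syt10* fell below the filter.

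Of the other synaptotagmins, *Syt12* had the smallest p of all 68 genes. It encodes a vesicle protein that lacks the calcium-binding residues. Its log2 intensity was 7.98, 7.86, 8.01, 8.06 and 8.07 in Braf-cko mice, against 8.13, 8.27 and 8.60 (lowest, median, highest) in Braf-flox mice. All 5 Braf-cko mice lay below all 6 Braf-flox mice, and *Syt12* was the 1 gene of 68 (1.47%) with no overlap, against 1.03% of all probes in the lower direction. In the higher direction none of these 68 brightest probes had groups without overlap, against 0.691% of all probes. The change was -0.31 (SE 0.08), or 80.8% of the Braf-flox level with an interval of 71.5% to 91.3%. Its exact permutation p was 0.0043, and limma's adjusted p over all probes was 0.147. *Syt4*, a synaptotagmin induced by activity, averaged 11.37 ± 0.13 in Braf-cko and 11.26 ± 0.22 in Braf-flox mice (change 0.11, SE 0.10, adjusted p 0.772 with limma), and 0.24 (adjusted p 0.365) was measured at its second tested probe.

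No SNARE gene of the fusion complex passed the test. *Vamp2*, the main synaptobrevin of the forebrain, averaged 12.39 ± 0.14 in Braf-cko and 12.47 ± 0.09 in Braf-flox mice, a change of -0.08 (SE 0.08). *Snap25* averaged 14.83 ± 0.11 in Braf-cko and 14.79 ± 0.05 in Braf-flox mice, a change of 0.04 with an interval of 92.9% to 113%. For *Stx1a*, the neuronal syntaxin, mice differed more among themselves, with 11.86 ± 0.13 in Braf-cko and 11.81 ± 0.33 in Braf-flox mice and an interval of 84.9% to 127%. None of the 6 tested plasma membrane SNARE genes and none of the 6 tested *Vamp* genes had an unadjusted p under 0.05. The largest changes among them were those of *Stx2* (0.17) and *Stx11* (-0.16). *Stx11* was dim, and Braf-flox replicate 2 stood at 6.55, with the next highest Braf-flox mouse at 5.98. *Vamp1* at its brightest probe (-0.04) and *Vamp3* (-0.13) had adjusted p-values of 0.935 and 0.719 (limma), while -0.31 (SE 0.13, adjusted p 0.392) was measured at another *Vamp1* probe.

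Complexins, which clamp and then assist SNARE complexes, differed in sign without passing the test. *Cplx1* averaged 13.64 ± 0.09 in Braf-cko and 13.73 ± 0.13 in Braf-flox mice (change -0.08), and *Cplx2* had a median of 11.17 in Braf-cko and of 11.05 in Braf-flox mice (change 0.15, limma's adjusted p 0.572). *Cplx3* and *Cplx4*, known from retinal synapses, fell below the filter. Of the syntaxin-binding proteins, *Stxbp5*, or tomosyn, which competes for syntaxin and holds release back, averaged 9.92 ± 0.19 in Braf-cko and 9.73 ± 0.11 in Braf-flox mice (change 0.19, SE 0.09, adjusted p 0.46 with limma). *Stxbp2*, the Munc18 protein of non-neuronal secretion, had a change of 0.22 (SE 0.11, adjusted p 0.477), and the other 3 tested genes of the group lay between -0.06 and 0.07.

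At the active zone, *Rims1* had the largest change of the 68 genes. It encodes RIM1, the scaffold that joins RAB3 on the vesicle with MUNC13 and calcium channels. Its values were 7.89, 8.20, 8.09, 8.06 and 7.79 in Braf-cko mice, against 8.11, 8.40 and 8.86 (lowest, median, highest) in Braf-flox mice. The groups overlapped by 1 Braf-cko and 1 Braf-flox mouse. The change of -0.43 (SE 0.12) put Braf-cko mice at 74.4% of the Braf-flox level, with an interval of 62.7% to 88.4%. Limma's adjusted p was 0.156 and the exact permutation p was 0.0087. The other *Rims1* probe had a change of -0.03 (SE 0.09), and with both probes averaged the gene's change was -0.23 (adjusted p 0.395). The other RIM genes had changes of -0.10 (*Rims2*), 0.09 (*Rims3*) and 0.07 (*Rims4*), and *Unc13a*, which encodes the priming factor MUNC13-1, had a probe below the filter, with 5.63 ± 0.08 in Braf-cko and 5.68 ± 0.14 in Braf-flox mice.

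*Rab3a* encodes the vesicle GTPase that RIM1 binds. It had 8.97, 8.95, 8.86, 9.0 and 9.18 in Braf-cko mice, against 8.97, 9.21 and 9.43 (lowest, median, highest) in Braf-flox mice. The groups overlapped, with 4 of the Braf-cko mice in or below the lower part of the Braf-flox range. The change was -0.22 (SE 0.09), 85.8% of the Braf-flox level, with limma's adjusted p at 0.393. *Rab3b*, its relative enriched in interneuron terminals, had 8.14, 7.41, 7.05, 7.40 and 7.77 in Braf-cko mice, against 7.58, 7.94 and 8.43 in Braf-flox mice. Its change of -0.42 came with an SE of 0.20 and an interval of 55.6% to 101% of the Braf-flox level (adjusted p 0.483 with limma). On the log2 scale this interval was the widest of all. A change of -0.27 (adjusted p 0.505) was measured at its second probe. *Rab3gap1*, the catalytic subunit of the complex that switches RAB3 off, had a change of -0.16 (SE 0.08, adjusted p 0.499), and the remaining 5 genes of this group lay between -0.05 and 0.12.

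The genes that entered by spelling held no called gene either. All 7 tested syntaxins of endosomes, the Golgi and the endoplasmic reticulum had changes below 0, as had 49% of all probes, and they were small, from -0.13 (*Stx8*) to -0.02 (*Stx5a*), and none had an unadjusted p under 0.05. Of the 8 tested Rab GTPases from *Rab31* to *Rab39b*, *Rab36*, which works at the Golgi, averaged 8.71 ± 0.17 in Braf-cko and 8.48 ± 0.06 in Braf-flox mice (change 0.23, SE 0.08, adjusted p 0.293 with limma). *Rab32* had the lowest change of the 8 (-0.23), and its unadjusted p was not under 0.05. The 16 genes whose brightest probe was below the filter had changes of -0.10 to 0.09, and the smallest of their exact permutation p-values was 0.173.

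Genes with several probes show how far one probe can be taken for a gene. Of the 84 genes, 37 had 2 or more probes, and 24 had 2 or more that were tested in Braf-cko mice. In 16 of these all probes had a change of the same sign. The gap between the probes of a gene had a median of 0.081 and reached 0.394 in *Rims1*, which is about the size of the largest changes themselves.

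Markers of the cell types of the hippocampus were examined in the same mice, and no marker of the 12 lists passed the adjusted test. Some came near it, with a smallest adjusted p (limma) of 0.0685 for neurons and 0.068 for dentate granule cells. It was 0.073 for CA1 pyramidal cells and 0.074 for interneurons. At an unadjusted p under 0.05 (limma), 4 of 9 astrocyte, 4 of 11 interneuron, 4 of 12 endothelial and mural and 2 of 6 CA1 markers were lower. Neurons, dentate granule cells and oligodendrocytes had 1 lower marker each, the other lists had none, and no marker was higher. Over all probes, 5.41% were lower and 5.37% higher at that level. The study itself lists *Fibcd1*, *Calb1*, *Tac1* and *Map2* (there *Mtap2*), which are among these markers, as lower in Braf-cko mice. The summed log2 level of 6 tested markers of CA1 pyramidal cells was 12.55 to 12.99 in Braf-cko and 13.07 to 13.36 in Braf-flox mice, with changes below 0 in 5 of the 6 and a median change of -0.33. That of 11 interneuron markers was 13.88 to 14.02 in Braf-cko and 14.06 to 14.32 in Braf-flox mice (7 of 11 below 0, median -0.11), and that of 12 endothelial and mural markers was 12.55 to 12.74 in Braf-cko and 12.79 to 12.92 in Braf-flox mice (8 of 12 below 0, median -0.03). For these 3 lists the sums, which the brightest markers carry, did not overlap between the groups, while the mean log2 levels did. They were singled out from the 12 lists after their values were seen, and the sums of all other lists overlapped. Median changes elsewhere were -0.05 for astrocytes (7 of 9 below 0), -0.10 for oligodendrocytes (8 of 9) and -0.10 for dentate granule cells (3 of 5). They were 0.00 for CA3 (4 of 8), 0.06 for microglia (1 of 7), 0.01 for thalamus and habenula (4 of 8) and -0.08 for blood (3 of 4). The means were 9.25 to 9.96 in Braf-cko and 9.76 to 10.19 in Braf-flox mice for CA1, 9.48 to 9.75 in Braf-cko and 9.68 to 9.82 in Braf-flox mice for interneurons, and 8.41 to 8.63 in Braf-cko and 8.62 to 8.71 in Braf-flox mice for endothelial and mural cells. Markers of neurons in general had a median change of -0.04 (6 of 9 below 0, lowest -0.54). Their sums were 14.54 to 14.76 in Braf-cko and 14.46 to 14.69 in Braf-flox mice. Markers of the choroid plexus, a neighbouring tissue, had sums of 9.08 to 11.02 in Braf-cko and 8.82 to 14.10 in Braf-flox mice, with changes below 0 in 6 of 6. The part of these markers in the values of *Syt12*, *Rims1* or *Rab3b* was not tested.

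No release gene was called in mice with the CamkIIa-Cre transgene alone. Of the 68 genes tested in CamkII-Cre mice, none was called lower, against 0.00858% of all probes, and none was called higher, against 0% of all probes. At an unadjusted p under 0.05, 1 gene was lower (1.47%, against 0.755% of all probes) and 0 were higher (against 0.875%). The methods' t-test gave 1 lower and 1 higher gene at that level and none after adjustment. The median log2 change of the genes was 0.00181, and the 95% interval lay within 0.5 log2 units of no change for 67 of the 68 genes. None of the 90 tested probes of the 84 genes was called, and no tested gene had groups without overlap, as 0.0386% of all probes had in the lower and 0.0429% in the higher direction.

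The exception in size was *Rims4*, which encodes a short RIM of the active zone that lacks the RAB3-binding part. Its log2 intensity was 6.45, 6.58 and 6.86 (lowest, median, highest) in CamkII-Cre mice, against 6.41, 7.18 and 7.39 in CamkII-wt mice. The CamkII-Cre mice lay below all CamkII-wt mice but replicate 6, which had the lowest value of all 12. The change was -0.49 (SE 0.14), or 71.4% of the CamkII-wt level with an interval of 58.2% to 87.8%, with an exact permutation p of 0.0238 and limma's adjusted p at 1.0. Without CamkII-wt replicate 6 the change was -0.62 and the adjusted p 0.0586, and over all alternatives the adjusted p lay between that and 1. The other *Rims4* probe was below the filter in this experiment, with 6.00 ± 0.15 in CamkII-Cre and 5.96 ± 0.13 in CamkII-wt mice.

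Several of the genes with the largest changes in Braf-cko mice were close to 0 with the transgene, but not all. *Syt12* averaged 8.43 ± 0.11 in CamkII-Cre and 8.42 ± 0.20 in CamkII-wt mice, a change of 0.01 with an interval of -0.17 to 0.20. *Rims1* changed by 0.00 (8.86 ± 0.10 in CamkII-Cre and 8.86 ± 0.19 in CamkII-wt), with an interval of -0.18 to 0.17. The called *Syn2* probe averaged 7.38 ± 0.14 in CamkII-Cre and 7.35 ± 0.10 in CamkII-wt mice, a change of 0.03 with an interval of -0.12 to 0.17. *Syn1*, *Syn3* and *Rab36* changed by 0.02, 0.02 and -0.01. *Syp* and *Stxbp5*, each with a change of 0.19 in Braf-cko mice, also rose with the transgene, by 0.11 and 0.10. Of all genes tested with the transgene, *Vamp2* had the most negative change after *Rims4* (-0.21, SE 0.11). *Syn2* at its brightest probe had the most positive (0.18, SE 0.10), and both intervals included 0.

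Below the filter, 1 of 16 genes had an exact permutation p under 0.05 in CamkII-Cre mice. This was *Vamp5*, a VAMP of muscle and other non-neuronal cells, with 6.04, 6.08 and 6.20 (lowest, median, highest) in CamkII-Cre and 5.88, 5.99 and 6.06 in CamkII-wt mice, a difference of 0.12 (exact p = 0.0065, unadjusted). It was picked after its values were seen, and both groups are among the dim probes.

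**Figure D3:**
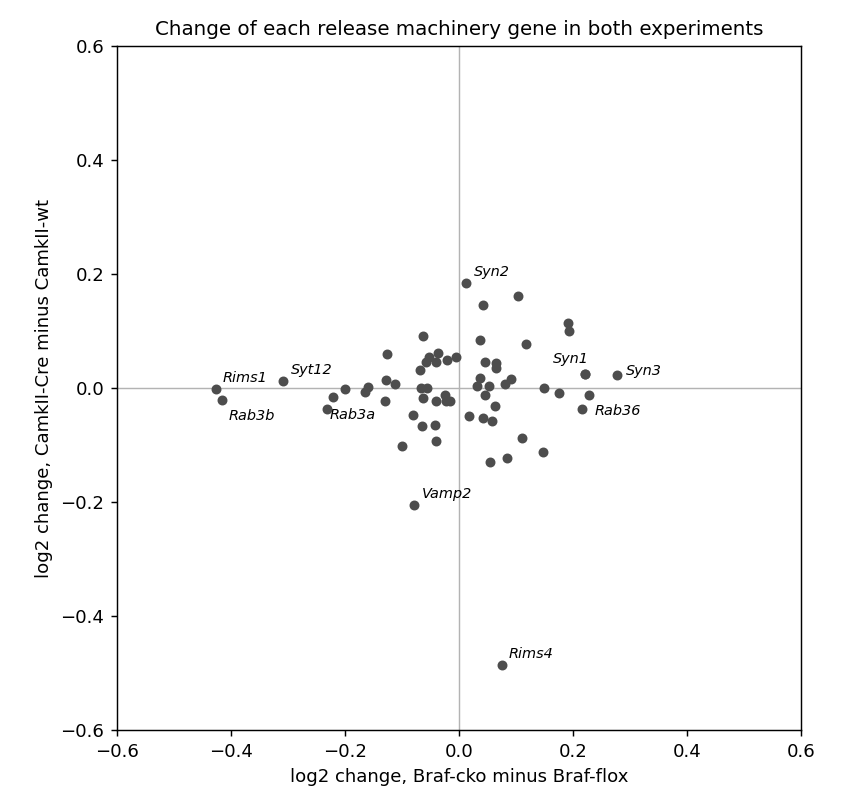
Log2 change of each of the 65 genes tested in both experiments, Braf-cko minus Braf-flox on the x axis and CamkII-Cre minus CamkII-wt on the y axis, 1 point for each gene. *Rims1*, *Rab3b* and *Syt12* lie to the left near 0 on the y axis, and *Rims4* lies at the bottom (-0.49) near 0 on the x axis.

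Whether the Braf-cko change differed from the change with the transgene was tested directly, over all 23 mice. Of 69 genes tested, none was called in either direction, against 0.146% of all probes called lower and 0.0386% called higher. At an unadjusted p under 0.05, 2 were lower, *Rims1* (-0.43, SE 0.15, adjusted p 0.454) and *Syt12* (-0.32, SE 0.12, adjusted p 0.557), and 2 were higher, *Rims4* (0.56, SE 0.18, adjusted p 0.406) and *Rab36* (0.24, SE 0.12, adjusted p 0.749). These are 2.9% in each direction, against 3.3% and 3.37% of all probes lower and higher. The called *Syn2* probe had a difference of 0.35 (SE 0.10) with an adjusted p of 0.291 (limma). Without CamkII-wt replicate 6, *Rims4* passed the test (0.69, adjusted p 0.032), and over all other alternatives its adjusted p was between 0.314 and 0.712. Levels were not compared across the experiments, since the deposited array medians differed between them, between 51.8 and 53.3 for Braf-cko and Braf-flox arrays but between 64.98 and 70.2 for CamkII-Cre and CamkII-wt arrays.

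Pairs of arrays of 1 mouse show the technical error of these genes. In the transgene experiment every mouse had 2 arrays, and the median SD between the arrays of a mouse was 0.095 (0.032 to 0.186), against 0.132 between mice of a group. The second array set differed from the first by -0.035 at the median gene, but by -1.39 for *Rab3a*, -1.11 for *Rims1* and -1.03 for *Stx6*, which cancels between groups because every mouse was in both sets.

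Other genes of vesicle release, active zone, vesicle transport and recycling were taken as 4 lists beside the 84. Of their 73 genes, 62 were tested in Braf-cko mice, and 1 was called lower and 0 higher, where 0.373% of all probes were called lower and 0.159% higher. *Synj2*, which encodes an inositol phosphatase of clathrin-mediated endocytosis, averaged 6.39 ± 0.15 in Braf-cko and 7.12 ± 0.31 in Braf-flox mice, and fell by 0.73 on the log2 scale (SE 0.13, adjusted p 0.0223 with limma). The study also lists *Synj2* among its lower genes. At an unadjusted p under 0.05, 5 of the 62 were lower and 2 higher, beside 5.41% and 5.37% of all probes lower and higher. *Syngr3*, a synaptogyrin of the vesicle membrane (-0.26, adjusted p 0.257), had the next smallest p among the lower ones. *Snap23*, the widely expressed SNAP25 relative (0.30, adjusted p 0.234), and *Slc17a7*, the vesicular glutamate transporter VGLUT1 (0.34, adjusted p 0.32), were the higher ones. In CamkII-Cre mice none of 59 tested genes of these lists was called, and 0 were lower and 1 was higher at an unadjusted p under 0.05, beside 0.755% and 0.875% of all probes lower and higher.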

How the data were processed

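The authors processed BeadChip scans with beadarray, limma and vsn and deposited, per probe and array, a normalized intensity on a linear scale. Settings are not given in the sources used here. A second deposited table with 36 signal columns was not used, because its column names match no sample. The log2 of each intensity was averaged over the arrays of a mouse. Of 46632 probes, the 23316 brighter ones of each comparison were tested with limma 3.58.1 (lmFit, eBayes, two-sided) in R 4.3.3, with statmod 1.5.0, Benjamini-Hochberg adjustment over all tested probes and a threshold of 0.05. A change is a difference of mean log2 values, Braf-cko minus Braf-flox or CamkII-Cre minus CamkII-wt. The fits were tested on simulated data. Alternatives were other filters, normalizations, offsets and priors, blocks, the methods' t-test, single arrays, the mean of a gene's probes, and leaving out each mouse. The number of arrays limits the precision. Named genes are core release genes and those with the smallest p-values in each comparison and direction, and others were named as examples of their group. Genes, lists and rules were chosen with earlier results of these data known. Symbols come from the platform annotation, and all 84 were current.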

Additional observations from a re-analysis of the deposited data

Results flagged for a closer look

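In 24 genes and 4 groups, 1 mouse stood apart from the others of its group in 9 of 96 checks, where chance alone gives about 5% of groups. In Braf-cko mice these were *Syt4* in replicate 4 (11.14) and *Vamp2* in replicate 3 (12.15), both the lowest of their group. In Braf-flox mice, replicate 1 had the lowest *Syt1* (13.51) and the highest *Vamp2* (12.65), and replicate 2 had the lowest *Vamp1* (8.70). In CamkII-Cre mice, replicate 1 had the highest *Cplx1* (14.08) and the highest *Syt1* (14.44), and replicate 6 the lowest *Cplx2* (10.32). In CamkII-wt mice, replicate 2 had the lowest *Syt12* (8.03). None of these genes passed the adjusted test in any comparison, with or without the mouse.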

How the results depend on the processing

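Counts of called genes were 0 in both directions and all 3 comparisons, and stayed 0 under the alternatives with 2 exceptions. With the replicate number as a block, 1 gene was called lower in Braf-cko mice, *Rims1* (-0.49, SE 0.079, adjusted p 0.0429, against 0.083 to 0.395 under the others), and the called *Syn2* probe no longer passed (0.39, adjusted p 0.172). The deviations of same-numbered mice of the Braf experiment had correlations of -0.135 to 0.127 over all tested probes. The labels do not say whether the number marks a pairing. These correlations cannot decide it, since a pairing could act on some probes only. In the transgene experiment the correlations were -0.237 to 0.59, and 0 genes were called with the block. Leaving out 1 mouse gave 0 called genes, except for 1 called higher in the difference without CamkII-wt replicate 6 (range 0 to 1). The *Syn2* probe passed with the brightest 25% of probes, quantile or median normalization, an offset of 50 and single arrays, and not with no filter (adjusted p 0.0553), the intensity-dependent prior (0.0638), the split of animal numbers as blocks (0.0616) or the t-test (0.113). Called probes over all genes in Braf-cko mice were 124, 58 with the block, 19 by t-test and 69 to 114 without 1 mouse; in CamkII-Cre mice they were 2, and 1 to 6 otherwise. Release genes at an unadjusted p under 0.05, 3 lower and 5 higher in Braf-cko mice, numbered 2 to 6 and 3 to 7 over all alternatives, and in CamkII-Cre mice 0 to 2 in each direction. In Braf-cko mice the changes of *Snap25*, *Stx1a*, *Sv2a*, *Vamp1* and *Syn2* at its brightest probe, all near 0, changed sign under some alternatives. In CamkII-Cre mice 14 of the examined changes did so, among them those of *Rims1*, *Syt12*, *Syn1*, *Syn3*, *Rab3a*, *Rab36* and the called *Syn2* probe, and in the test of the difference 5 did.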

Other observations

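As a description over 11 mice with group means removed, the genes most like the mean of the 68 release genes in the Braf experiment were *Rgs6* (r = 0.94), *Rasgef1c* (0.939), *Fam160a2* (0.935), *Tk2* (0.918) and *Itgb1* (0.918). These mice share their arrays and normalization, and no p is given.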
